A study of Homo sapiens with 12 samples.

Results

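The number of sequencing reads per gene was compared between CEL-seq2 and SMART-seq in single cells of HEK293T, a human embryonic kidney line that carries the SV40 large T antigen. The members were the 10 cells of 1 CEL-seq2 library (replicate 1, with the ERCC and A60 RNA spike-in mixes) and the 6 cells of 1 SMART-seq library (SMART-seq V4 kit, no mix named in its label), together 16 of the 403 wells of the series. They were chosen by assay and input, and the rule used no measured value, though earlier results of these data were known. Spike-in rows were removed and each cell was thinned to 350000 reads on genes. The study set both assays beside LAST-seq, an assay that amplifies the RNA molecule itself. Cells of neither assay were treated. The ERCC mix is a set of synthetic RNAs, and the A60 mix is a set of synthetic RNAs made with a longer poly-A tail, closer to that of human mRNA.

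Both assays start from an oligo-dT primer on the poly-A tail. In CEL-seq2 the primer also carries a cell barcode, a unique molecular identifier (UMI) and a T7 promoter, so that the cells are pooled after second-strand synthesis, amplified linearly by in vitro transcription and sequenced next to the poly-A tail, about 1 tag per molecule. In SMART-seq a template switch at the 5′ end of the RNA gives full-length cDNA, which is amplified by PCR in a tube of its own for each cell and fragmented, so that reads fall along the whole transcript and carry no UMI.

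The CEL-seq2 cells held 359989 to 516474 reads on genes (median 409901) and 94379 to 195438 UMIs, that is 2.13 to 4.37 reads per UMI. They were told apart by barcodes of 6 bases, such as ACTCGA for the cell with the fewest reads on genes and CATGAG for the cell with the most. The SMART-seq cells held 812582 to 818780 reads. With 1 library per assay, a difference between assays has no replicate check, so no p-value is given and SDs over cells describe the cells of 1 library. PCR reads are not independent molecules, and the intervals below cover counting error only.

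Each of the 6 cells matched 1 of the 16 wells labelled as single-cell lysate with the ERCC mix (SMART-seq lysate replicate 2) to within sampling noise. An index of the squared difference over the sum of a gene's reads, which is 1 for 2 draws from one library, was 0.940 to 1.0 for these 6 pairs and at least 32.5 for every other pair of a cell and such a well. Whether the wells are single cells or lysate cannot be told from the deposited files. The matched wells stood apart from the 10 other wells of that lysate library, with 7742 to 8160 against 12108 to 13105 genes in the reads as deposited. Among the CEL-seq2 cells no pair of UMI columns was near-identical, with an index of at least 2.75. Many of the results below are therefore also given against SMART-seq lysate replicate 1 (7 distinct wells of 10, with the A60 mix), of which no well matched the 6 cells. For the others, among them the cell pairs and most gene lists, no such value is given, and they rest on the 6 cells. Whether the lysate wells came from 1 pool of cells is not given in the sources used here.

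Of 11 genes chosen as HEK293T markers, 9 had reads in CEL-seq2 cells and 7 in SMART-seq cells. Vimentin (VIM) had 57 to 201 reads per CEL-seq2 cell (median 115.5) and 54 to 82 per SMART-seq cell (median 65). The RNA-binding protein gene IGF2BP1 had 22 to 182 reads (median 68.5) in CEL-seq2 and 0 to 29 (median 4.5) in SMART-seq, and galanin (GAL) had 3 to 30 (median 23) and 102 to 180 (median 171.5). PAX2 and TUBB3 were at 0 in all 16 cells. Of 10 markers of other cell types, 7 had a row in the tables. COL1A1 alone had reads in CEL-seq2 (0 to 13 per cell) and LUM alone in SMART-seq (0 to 40 per cell), and PTPRC, GATA1, ALB, CD34 and PECAM1 were at 0 in all of them.

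CEL-seq2 detected more genes per cell at the same number of reads. The study proposes that RNA other than mature mRNA, and genomic DNA, add to the genes CEL-seq appears to detect. Their part was not tested here. With at least 1 read for detection, the 10 CEL-seq2 cells held 11828 to 13702 genes (median 12449.5, mean 12609 ± 590, SD) and the 6 SMART-seq cells 6951 to 7385 (median 7141, mean 7177 ± 172). The lowest CEL-seq2 cell lay above the highest SMART-seq cell, and the difference of the means was 5432 genes. Against SMART-seq lysate replicate 1, whose 7 wells held 10753 to 11550 genes, the difference was 1320 over these wells, and the lowest CEL-seq2 cell still lay above the highest well. The gap to the SMART-seq cells opened with depth. At 10000 reads the means were 3818 ± 104 and 3185 ± 66.1 genes, at 50000 reads 8000 ± 302 and 5306 ± 145, and at 200000 reads 11402 ± 507 and 6685 ± 162. Against lysate replicate 1 the order turned at low depth, and its 7 wells held 3954 ± 98.8 genes at 10000 reads. At 25000 reads the means were 6061 ± 143 in these wells and 6105 ± 195 in CEL-seq2.

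**Figure D1:**
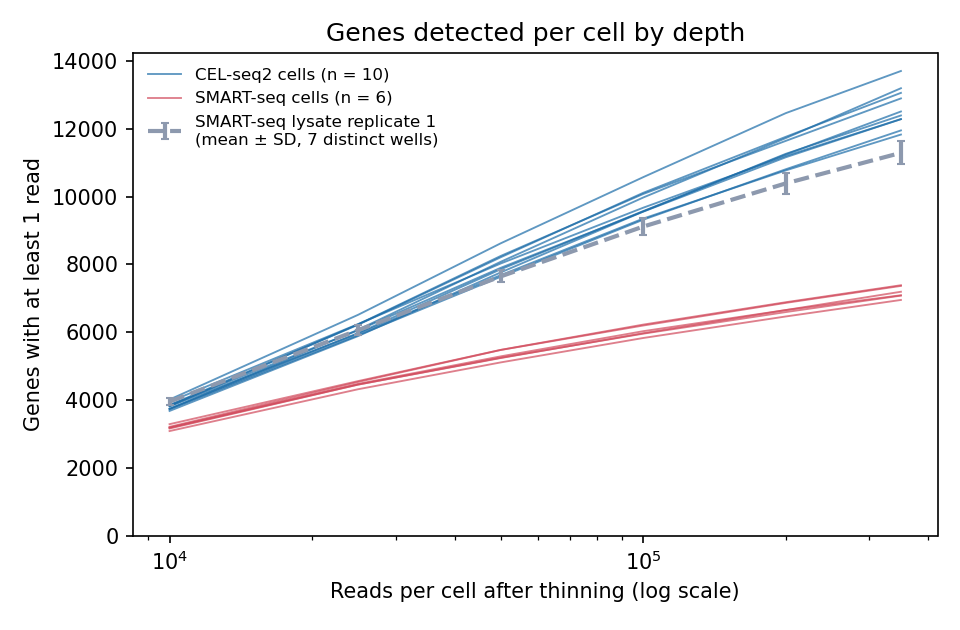
Genes with at least 1 read (y axis) against reads per cell after thinning (x axis, log scale) for each of 10 CEL-seq2 cells (blue lines) and 6 SMART-seq cells (red lines), with the mean ± SD of 7 distinct wells of SMART-seq lysate replicate 1 (grey, dashed). At 350000 reads the CEL-seq2 cells lie between 11828 and 13702 genes and the SMART-seq cells between 6951 and 7385, while the lysate wells lie between 10753 and 11550.

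A SMART-seq cell spread its reads over fewer genes, each with more reads. A detected gene had 27.8 ± 1.28 reads on average in a CEL-seq2 cell and 48.8 ± 1.16 in a SMART-seq cell, and the median detected protein-coding gene 10 to 12 against 28 to 32 reads. Genes with a single read made up 16.7% ± 0.877 of those detected in CEL-seq2 and 12.2% ± 0.430 in SMART-seq. With at least 5 reads for detection, 7907 ± 273 and 5301 ± 138 genes per cell remained. Lysate replicate 1 lay closer to CEL-seq2, with 31.0 ± 0.955 reads per detected gene and 14 to 15 reads for the median protein-coding gene. Its wells held 7417 to 7787 genes with at least 5 reads (mean 7644 ± 141), which overlapped the 7590 to 8530 of the CEL-seq2 cells.

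The lead of CEL-seq2 held when cells were added up. In any of 6 cells, 20089 genes were expected for CEL-seq2 over every choice of 6 of its 10 cells, and 13587 were detected by SMART-seq. All 10 CEL-seq2 cells shared 6374 genes, 28.2% of the 22582 detected in any of them, and all 6 SMART-seq cells shared 3111, 22.9% of theirs. Of the SMART-seq genes 85.8% were also detected in a CEL-seq2 cell, and of the CEL-seq2 genes 51.7% in a SMART-seq cell, with 10 cells against 6.

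Genes present in every cell of one assay and in none of the other differed in kind between the directions. There were 671 genes in all 10 CEL-seq2 cells and no SMART-seq cell, of which 573 were protein-coding, with a median transcript of 5249 nt, and 68 were long non-coding RNAs (lncRNAs). Of these 671 genes, 586 had reads in SMART-seq lysate replicate 1 and 662 had UMIs in a second CEL-seq2 library of 10 single cells (replicate 2, with the ERCC mix). In the opposite direction there were 263 genes in all 6 SMART-seq cells and no CEL-seq2 cell, of which 226 were processed pseudogenes and 15 protein-coding. All 263 had reads in SMART-seq lysate replicate 1 and 177 had UMIs in CEL-seq2 replicate 2. The 15 had a median transcript of 1226 nt, and for 10 of them (66.7%) at least 50% of the last 300 bases lay under exons of another gene. For comparison, 1991 genes were in every cell of both assays. Of these, 1682 were protein-coding (median transcript 2557 nt), 27 were lncRNAs and 234 were processed pseudogenes.

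The assays divided their detected genes differently among gene classes. Protein-coding genes made up 76.5% to 80.0% of the detected genes of a CEL-seq2 cell (78.0% ± 1.09) and 67.0% to 68.0% in SMART-seq (67.5% ± 0.467), or 9834 ± 380 against 4843 ± 149 genes. lncRNAs made up 8.42% to 11.3% (9.98% ± 0.977) against 4.30% to 4.63% (4.46% ± 0.118), or 1262 ± 174 against 320.5 ± 14.7 genes. Pseudogenes went the other way, with 9.04% to 10.4% (10.0% ± 0.420) in CEL-seq2 and 26.6% to 27.9% (27.2% ± 0.574) in SMART-seq. For none of these classes did the cells of the assays overlap.

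The pseudogenes in SMART-seq cells were more numerous and not only a larger share. A SMART-seq cell held 1932 to 1965 of them and a CEL-seq2 cell 1201 to 1366, although SMART-seq cells detected fewer genes in all. Most were processed pseudogenes, intronless copies of mRNAs (1679 ± 21.6 against 932 ± 38.0). Reads of such copies can be exchanged with those of the parent gene where the sequences are alike, so single pseudogenes are uncertain. By reads the classes were closer, with 7.96% ± 0.418 of SMART-seq and 7.55% ± 0.671 of CEL-seq2 reads on pseudogenes, shares that overlapped between cells. Protein-coding genes took 90.3% ± 0.267 of SMART-seq reads and 84.2% ± 2.16 of CEL-seq2 reads, and lncRNAs 0.922% to 1.39% and 2.51% to 5.34%. In SMART-seq lysate replicate 1, protein-coding genes, lncRNAs and pseudogenes made up 74.2% ± 0.635, 5.48% ± 0.237 and 19.4% ± 0.616 of the detected genes, between the 2 single-cell libraries in each class.

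Small RNAs without a long poly-A tail were sparse in both assays. Small nuclear RNA genes numbered 18 to 39 per CEL-seq2 cell and 3 to 5 per SMART-seq cell, small nucleolar RNA genes 8 to 27 and 2 to 7, and genes of the class of miscellaneous RNAs 38 to 79 and 3 to 8. Mitochondrial tRNAs took 0.311% ± 0.0979 of CEL-seq2 and 0.0223% ± 0.00424 of SMART-seq reads. Of 35 small structural RNAs listed, 6 had reads in each assay, and none reached a mean of 10 reads per cell in either.

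**Figure D2:**
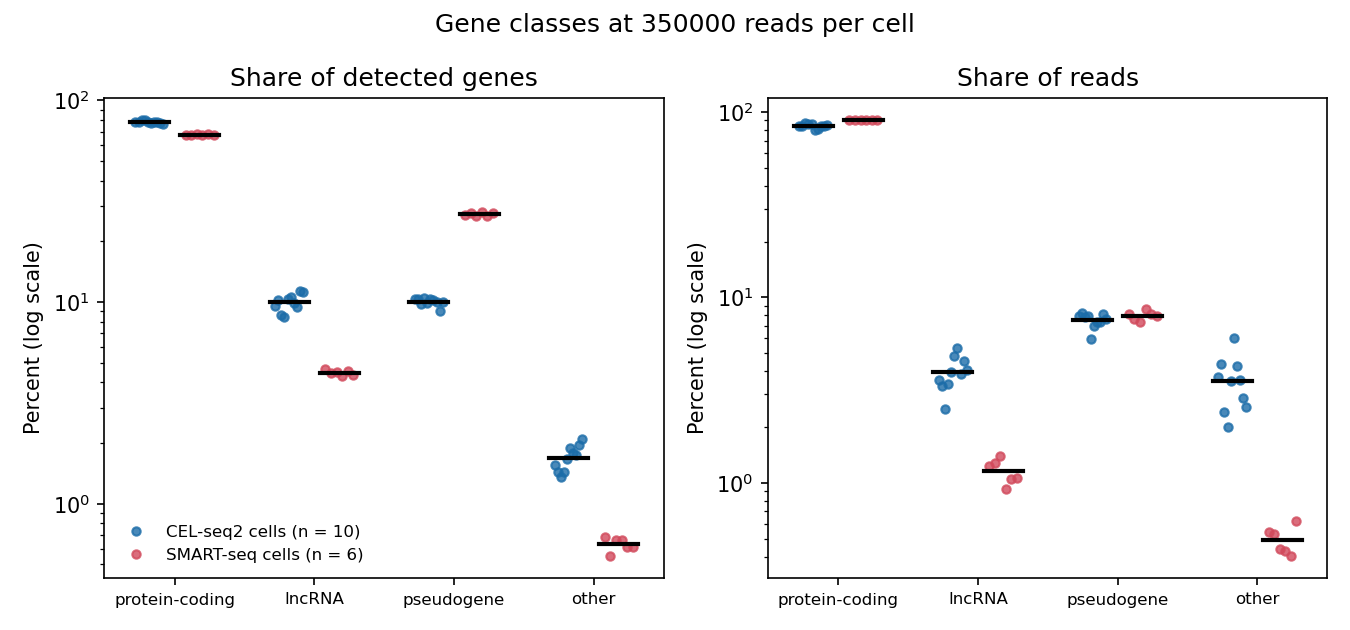
Share of detected genes (left) and of reads (right) by gene class for each of 10 CEL-seq2 cells (blue) and 6 SMART-seq cells (red) at 350000 reads, in percent on a log scale, with black bars at the mean. Pseudogenes lie at 26.6% to 27.9% of the detected genes in SMART-seq and at 9.04% to 10.4% in CEL-seq2, while their shares of reads overlap.

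Reads were concentrated in different ways. The 10 genes with most reads took 10.7% to 17.6% of a CEL-seq2 cell's reads (median 14.6%) and 4.39% to 5.17% of a SMART-seq cell's (median 4.79%), and the 100 highest 31.1% ± 2.72 and 21.5% ± 0.785. Over the 1000 highest the order turned, with 60.5% ± 1.70 and 63.9% ± 1.18, and the ranges overlapped. It did not turn against lysate replicate 1, where the 1000 highest took 52.7% to 56.3%, below every CEL-seq2 cell (57.0% to 62.9%). Mitochondrial genes took 9.84% to 16.1% of CEL-seq2 reads and 3.26% to 3.96% of SMART-seq reads.

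Dropout, the share of cells in which a gene had no read, was compared for protein-coding genes at a level set by another assay, the mean number of UMIs per cell in the 20 single cells of LAST-seq. Over the 8561 genes that reached 1 UMI on average there, dropout was 5.63% to 12.4% per CEL-seq2 cell (mean 8.74% ± 2.17) and 48.7% to 52.7% per SMART-seq cell (mean 50.5% ± 1.56). In SMART-seq lysate replicate 1 it was 18.9% ± 2.23. LAST-seq reads are enriched at the 3′ end, as CEL-seq2 tags are, so this level was not neutral between the assays. Genes under 1 LAST-seq UMI did not enter, such as TUBA1B, FTH1 and CDK4 (at most 0.05 UMIs), read in every SMART-seq cell. ABCG5 and FGF11 (at most 0.10 UMIs), read in every CEL-seq2 cell, were left out as well. With the level set by lysate replicate 1 the difference was -38.1 points, against -41.8.

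Dropout fell with the level in both assays. The gap was widest for genes with 2 to 5 UMIs and narrowed above. Among 1760 genes with 1 to 2 LAST-seq UMIs it was 23.5% ± 4.29 in CEL-seq2 and 74.5% ± 1.43 in SMART-seq. Among 2905 genes with 2 to 5 UMIs it was 9.02% ± 2.95 and 62.5% ± 1.85, and among 1792 genes with 5 to 10 UMIs 3.24% ± 1.40 and 43.9% ± 2.17. Among 1110 genes with 10 to 20 UMIs it was 0.982% ± 0.575 and 28.6% ± 2.04, and among 667 genes with 20 to 50 UMIs 0.420% ± 0.306 and 12.3% ± 1.30. Among the 327 genes with 50 or more UMIs it was 0.367% ± 0.241 and 3.92% ± 0.654. In no level class did the cells of the assays overlap.

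Most of the gap lay in long transcripts. For 221 genes whose longest transcript was under 1 kb, dropout was 7.65% ± 2.54 in CEL-seq2 and 8.60% ± 0.701 in SMART-seq, and the ranges over cells overlapped (4.52% to 11.8% and 8.14% to 9.95%). From 1 to 2 kb it was 9.20% ± 2.31 and 27.2% ± 0.886, from 2 to 4 kb 10.2% ± 2.54 and 47.7% ± 1.36, and from 4 to 8 kb 8.01% ± 2.03 and 59.6% ± 1.77. Over 8 kb it was 6.44% ± 1.94 and 63.8% ± 2.84. Dropout in CEL-seq2 stayed between 6.44% and 10.2% over the length classes, and in SMART-seq it rose with every class. The rise with length held at a fixed level. Among genes with 5 to 10 LAST-seq UMIs, SMART-seq dropout was 8.06% for 31 genes under 1 kb and 55.7% for 206 genes over 8 kb, and CEL-seq2 dropout was 9.68% and 1.50%. In lysate replicate 1 dropout rose from 3.17% ± 0.584 under 1 kb to 24.6% ± 4.10 over 8 kb, and under 2 kb it was below that of CEL-seq2.

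**Figure D3:**
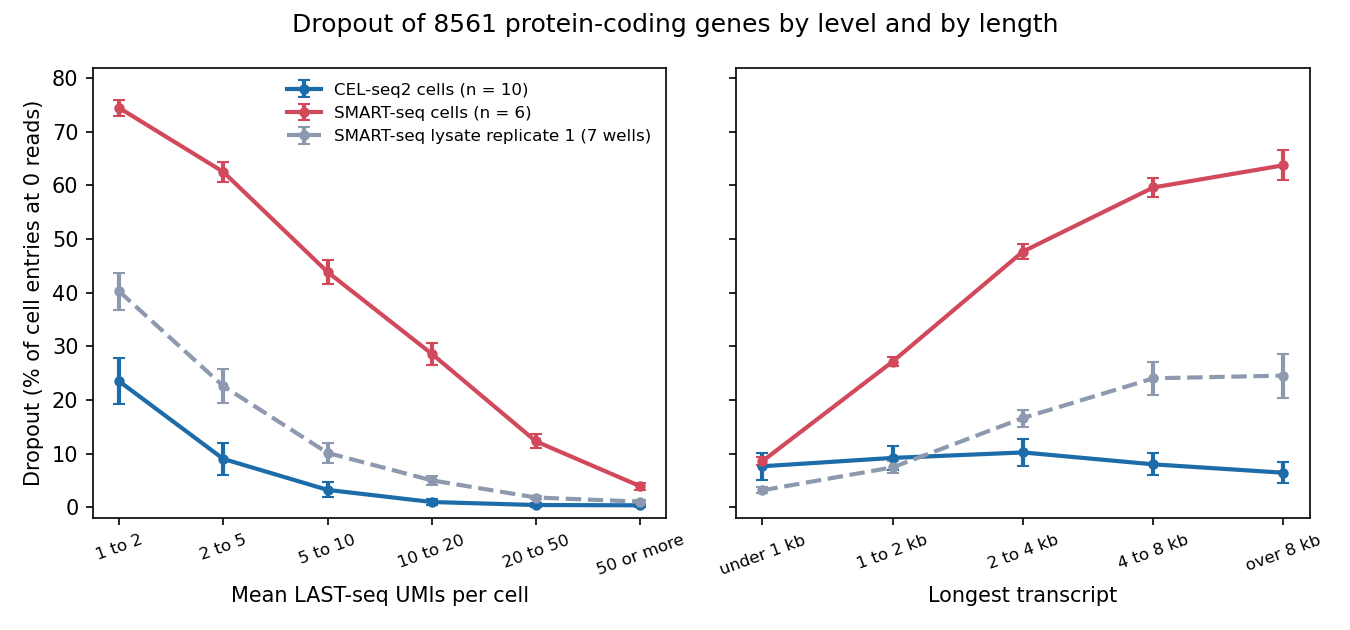
Dropout (percent of cells in which a gene had no read, mean ± SD over cells) of 8561 protein-coding genes by the mean LAST-seq UMIs per cell (left) and by the longest transcript (right), for 10 CEL-seq2 cells (blue), 6 SMART-seq cells (red) and 7 wells of SMART-seq lysate replicate 1 (grey, dashed). SMART-seq dropout rises from 8.60% under 1 kb to 63.8% over 8 kb, and CEL-seq2 dropout stays between 6.44% and 10.2%.

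Dropout was also set against the gene's own mean in the same assay. Protein-coding genes with a mean of 10 to 20 reads were missed in 3.14% of CEL-seq2 entries (2263 genes) and in 43.8% of SMART-seq entries (1491 genes), and those with 20 to 50 reads in 0.558% and 19.8%. Reads drawn independently at these means would leave 0.000609% and 0.000644% of entries empty for 10 to 20 reads. The observed shares lay above these values in both assays. In lysate replicate 1 the share was 6.35% at 10 to 20 reads.

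The ratio of mean reads followed the transcript length. Over 7379 protein-coding genes with a mean of at least 1 read in both assays, the log2 ratio of CEL-seq2 to SMART-seq rose by 0.84 per doubling of the longest transcript (SD over cells 0.09). The median log2 ratio was -1.60 for 226 genes under 1 kb, -1.21 for 1071 genes of 1 to 2 kb, -0.42 for 2682 of 2 to 4 kb, 0.48 for 2647 of 4 to 8 kb and 1.32 for 753 over 8 kb. CEL-seq2 was the higher assay for 15.0% of the genes under 1 kb and for 78.2% of those over 8 kb. The order of the classes was the same against lysate replicate 1, where the log2 ratio rose by 0.73 per doubling over its 7 distinct wells. Relative to the LAST-seq level, the log2 ratio rose by 0.48 per doubling in CEL-seq2 (8407 genes) and fell by 0.37 in SMART-seq (6576 genes), so that both assays departed from LAST-seq, in opposite directions.

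Base composition and length went together, so that the GC content was compared within length classes, a step added after the data had been seen. Over all lengths the median log2 ratio lay between -0.23 and 0.07 in 6 classes of GC content from under 40% to over 60%, but the median transcript fell from 4859 nt under 40% to 2306 nt over 60%. From 2 to 4 kb the median log2 ratio was -0.81 for 499 genes under 40% GC, -0.56 for 1147 of 40 to 50%, -0.14 for 782 of 50 to 60% and 0.56 for 254 over 60%. From 4 to 8 kb it was 0.23 for 893 genes, 0.51 for 1161, 0.92 for 490 and 1.58 for 103 in the same order, and from 1 to 2 kb -1.57 for 102, -1.41 for 389, -1.12 for 384 and -0.56 for 196. Over 8 kb it was 1.18 for 291, 1.32 for 370 and 1.61 for 80 in the first 3 GC classes. In these 4 length classes GC-rich transcripts were thus relatively higher in CEL-seq2, and the order was the same against the lysate wells. Under 1 kb the medians followed no such order (-1.46 for 75 genes of 40 to 50%, -1.66 for 89 of 50 to 60% and -1.37 for 48 over 60%).

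Transcripts with a run of 12 or more A bases, more than 200 bases from the 3′ end, were compared within length classes as well. From 1 to 2 kb the median log2 ratio was -0.91 for 31 genes with such a run and -1.23 for 1040 without, and from 2 to 4 kb -0.20 for 288 and -0.44 for 2394. From 4 to 8 kb it was 0.49 for 696 and 0.48 for 1951, and over 8 kb 1.32 for 356 and 1.32 for 397. The genes with a run thus had the higher median from 1 to 4 kb and nearly the same median above. The SD of the median over SMART-seq cells was 0.34 with a run and 0.08 without from 1 to 2 kb. From 2 to 4 kb these SDs were 0.22 and 0.25. Genes with a run also had longer transcripts, with medians of 1769 against 1578 nt from 1 to 2 kb and 3168 against 2918 nt from 2 to 4 kb.

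**Figure D4:**
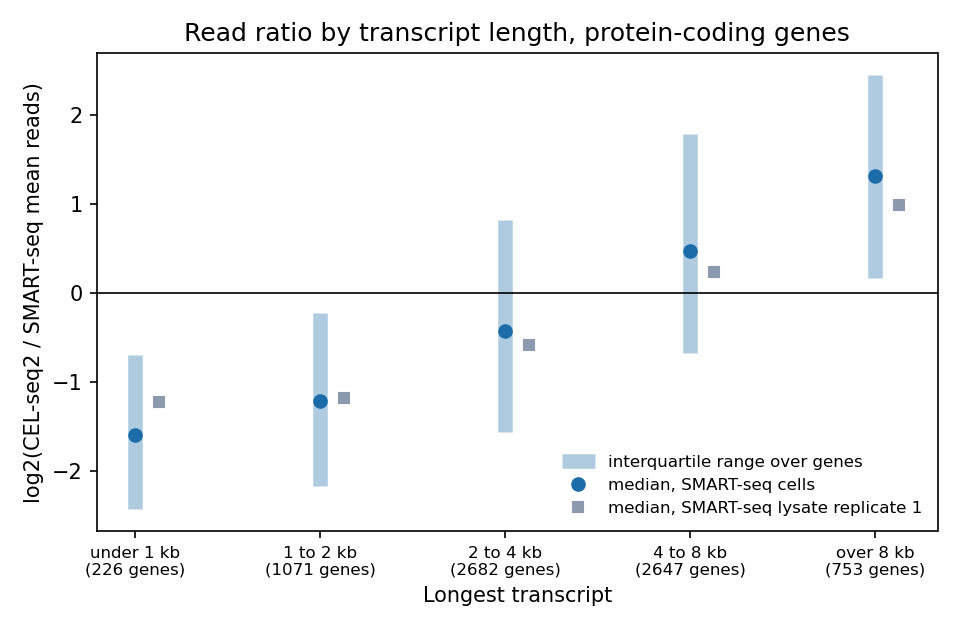
Median log2 ratio of CEL-seq2 to SMART-seq mean reads per cell (y axis) for protein-coding genes by the longest transcript (x axis, number of genes in brackets), with the interquartile range over genes as bars, and the median against SMART-seq lysate replicate 1 as grey squares. The median rises from -1.60 under 1 kb to 1.32 over 8 kb.

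Single genes were compared by a rule of size. Of 7497 genes with a mean of at least 10 reads per cell in either assay, 2007 (26.8%) were more than 4-fold higher in CEL-seq2 and 1511 (20.2%) more than 4-fold higher in SMART-seq. The median log2 ratio of the tested genes was 0.05. Of the tested genes 2431 reached the minimum through CEL-seq2 alone and 1659 through SMART-seq alone, and such genes had to differ. Among the 3407 genes past the minimum in both assays the order of the counts turned, with 192 higher in CEL-seq2 and 426 in SMART-seq. It also turned against the 7 wells of SMART-seq lysate replicate 1, with 1158 and 1320 genes. A gene at 0 in all cells of one assay was set at 3 reads over that assay. Its ratio is given as a lower bound ("at least") that rests on this floor, as for 551 genes higher in CEL-seq2 and 78 higher in SMART-seq. The 95% interval could begin lower, at 5103-fold for ABCG5 (bound 6275-fold) and 1061-fold for TUBA1B (bound 1306-fold), both described below. No cell of one assay overlapped the other for 904 (12.1%) and 839 (11.2%) genes. Of the 2007 and 1511 genes, 1022 and 1120 were also past 4-fold in the same direction against SMART-seq lysate replicate 1, and for 88 and 14 the ratio lay on the other side of 1. Scaling by TMM factors, DESeq2 size factors or totals without mitochondrial genes raised every log2 ratio by 0.21, 0.15 and 0.15.

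The classes differed in which assay was higher. Of 6672 protein-coding genes tested, 1830 (27.4%) were higher in CEL-seq2 and 1076 (16.1%) in SMART-seq. Of 150 lncRNAs, 75 (50%) and 16 (10.7%) were, with a median log2 ratio of 2.06. Of 638 pseudogenes, 80 (12.5%) and 412 (64.6%) were, with a median of -3.48, and the processed pseudogenes among them had 54 and 388 of 558.

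Among the 790 protein-coding genes that were higher in CEL-seq2 without overlap, the largest ratio belonged to ABCG5, which codes for one part of a sterol transporter (chromosome 2, 43812472 to 43838865, minus strand, GRCh38). It had 1577 to 4980 reads per CEL-seq2 cell (median 3088) and none in SMART-seq, so it was at least 6275-fold higher. It also had none in SMART-seq lysate replicate 1, 0.10 UMIs per cell in LAST-seq and none in the CEL-seq2 lysate, while both single-cell libraries of CEL-seq2 held it, with means of 1612 and 1982 UMIs per cell. Fibroblast growth factor 11 (FGF11, chromosome 17, 7438273 to 7444937, plus strand) had 248 to 3724 reads (median 1106) and none in SMART-seq, at least 3099-fold. It was present in the first CEL-seq2 library alone, with a mean of 749 UMIs per cell, and at 0 UMIs in replicate 2, in the CEL-seq2 lysate and in LAST-seq. The 300 bases at its 3′ end lie wholly under exons of another gene on the same strand, ENSG00000272884.

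FAM76A had 213 to 889 reads per cell (median 434) and none in SMART-seq, at least 935-fold, with means of 397 and 323 UMIs per cell in CEL-seq2 replicates 1 and 2, and of 1.3 in LAST-seq. The cannabinoid receptor gene CNR2 had 129 to 375 (median 206.5) and none, at least 440-fold, and the lectin gene CLEC18A had 49 to 649 (median 167) and none, at least 422-fold. Both were near 0 in LAST-seq, at 0.05 UMIs per cell. In SMART-seq lysate replicate 1, FGF11, CNR2 and CLEC18A had no read and FAM76A had a mean of 8.86.

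The other 5 of the 10 largest ratios had a single read over the 6 SMART-seq cells, and their ratios are therefore wide. NF1, which codes for the Ras regulator neurofibromin, had 40 to 130 reads per CEL-seq2 cell (median 94), 548-fold with an exact interval of 98.2 to 21684. SH3KBP1, an adaptor of endocytosis, had 46 to 113 (median 81), 473-fold with 84.6 to 18698, and LAST-seq held 248 UMIs of it per cell. The nuclear import receptor TNPO2 had 19 to 111 (median 60), PRRC2A had 35 to 85 (median 57), and SMARCA2, an ATPase of the BAF chromatin remodelling complex, 3 to 76 (median 37.5). All 5 had transcripts over 5 kb (5051 to 12484 nt) and means of 2.29 to 6.29 reads in lysate replicate 1.

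Of the 445 protein-coding genes higher in SMART-seq without overlap, the 10 largest ratios belonged to transcripts of 780 to 3198 nt. Alpha-tubulin TUBA1B had 334 to 459 reads per SMART-seq cell (median 395.5) and none in CEL-seq2, at least 1306-fold, and the ferritin heavy chain FTH1 122 to 167 (median 157) and none, at least 505-fold. The mitochondrial lipid carrier gene PRELID1 had 49 to 106 (median 99.5) and none, at least 289-fold. The cell-cycle kinase CDK4 had 35 to 149 (median 66) against 1 read in 10 cells, 847-fold with an interval of 151 to 33507. The tRNA synthetase scaffold AIMP2 had 40 to 121 (median 82.5) against 2 reads, and the ubiquitin ligase STUB1 13 to 75 (median 26) and the chloride channel protein CLIC1 15 to 39 (median 30) against 1 read each. The acetyl-CoA acetyltransferase ACAT2 had 265 to 492 (median 372.5) against 0 to 5, 272-fold (162 to 497), the small nucleolar RNP protein NHP2 89 to 239 (median 123.5) against 0 to 3, 232-fold (106 to 635), and the peroxiredoxin PRDX1 608 to 871 (median 727.5) against 1 to 6, 199-fold (144 to 284). All 10 were also present in lysate replicate 1, with means of 26.1 to 632 reads. In both CEL-seq2 libraries and in LAST-seq they had at most 18.8 UMIs per cell, the value of PRDX1 in replicate 2.

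For 9 of these 10 genes the 300 bases at the 3′ end of the longest transcript lay wholly under exons of a gene on the other strand. These genes were TUBA1B-AS1 for TUBA1B, BEST1 for FTH1, TSPAN31 for CDK4, EIF2AK1 for AIMP2, JMJD8 for STUB1, MXD3 for PRELID1, TCP1 for ACAT2, RMND5B for NHP2 and MMACHC for PRDX1. For CLIC1, 12.3% of these bases lay under DDAH2 on the same strand. After these genes had been seen, the overlap was counted for all tested protein-coding genes. At least 50% of the 3′ end was covered by exons of another gene for 6.92% of the 6672 genes, for 5.08% of those higher in CEL-seq2 (exact interval 4.12% to 6.19%) and for 13.3% of those higher in SMART-seq (11.3% to 15.5%). Past 32-fold the shares were 4.75% of 484 and 60.9% of 64 genes (47.9% to 72.9%). Of those 64, 36 had the overlap on the other strand. Within a length class the covered genes had the lower median log2 ratio from 2 kb upwards, with -0.94 (197 genes) against -0.40 (2338 genes with a free 3′ end) from 2 to 4 kb, -0.29 (189) against 0.54 (2361) from 4 to 8 kb and 0.90 (62) against 1.36 (670) over 8 kb. From 1 to 2 kb it was -1.08 (81) against -1.22 (907). Without the covered genes 1900 and 1359 genes of all classes were past 4-fold. Whether the counting used the strand is not given in the sources used here, and the part of the overlap in these ratios was not tested.

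Few lncRNAs were higher in SMART-seq. Of those higher in CEL-seq2 without overlap (36 genes), TAPT1-AS1 had 96 to 307 reads per CEL-seq2 cell (median 195.5) and 1 read in SMART-seq. ENSG00000281181, a gene of 923 nt on chromosome 21, had 264 to 1143 (median 519) and none, at least 1140-fold, and ENSG00000270321 had 133 to 666 (median 275.5) and none, at least 626-fold. The latter was, like FGF11, at 0 UMIs in CEL-seq2 replicate 2. ENSG00000283907 had 23 to 233 reads (median 99) and none, and ENSG00000286259 56 to 155 (median 112) against 3 reads in 6 cells. In the other direction 2 lncRNAs passed without overlap, both hosts of small nucleolar RNAs. SNHG29 had 28 to 106 reads per SMART-seq cell (median 74.5) and 1 to 12 in CEL-seq2 (median 7), a log2 ratio of CEL-seq2 to SMART-seq of -3.58, and SNHG15 had 43 to 170 (median 109) and 4 to 23 (median 12.5), a log2 ratio of -2.93.

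Of 24 nuclear and regulatory lncRNAs listed, 12 were tested, 6 were past 4-fold higher in CEL-seq2 and none in SMART-seq, with a median log2 ratio of 1.93. Of all tested lncRNAs 50% were higher in CEL-seq2, the same share as in the list, against 26.8% of all tested genes. KCNQ1OT1, the antisense transcript of the imprinted KCNQ1 locus, had 36 to 204 reads (median 115) in CEL-seq2 and 0 to 33 (median 0) in SMART-seq. NEAT1, the scaffold of paraspeckles, had 39 to 646 (median 312) and 0 to 90 (median 19.5), and the cells overlapped. MALAT1 of nuclear speckles had 317 to 1271 (median 610) and 230 to 1576 (median 902.5), a log2 ratio of -0.51 that lay within the spread of the cells. For 22 hosts of small nucleolar RNAs, 17 were tested, 2 were higher in each assay, against 26.8% and 20.2% of all tested genes, and the median log2 ratio was -0.05. Among those tested SNHG1 had the largest ratio in favour of CEL-seq2, with 56 to 278 reads (median 187) against 0 to 59 (median 8.5).

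Among the pseudogenes and other classes, 392 genes were higher in SMART-seq without overlap and 78 in CEL-seq2. The largest ratios in SMART-seq were those of processed pseudogenes of abundant mRNAs. TPI1P1 had 132 to 167 reads per cell (median 138.5), SRP9P1 105 to 152 (median 113.5), GAPDHP1 45 to 94 (median 61) and ENSG00000185839 38 to 72 (median 63.5), each against 1 read in the 10 CEL-seq2 cells. PPIAP22 had 330 to 492 (median 373.5) against 0 to 3. In CEL-seq2, GEMIN8P3 had 416 to 1033 reads (median 687) and none in SMART-seq, at least 1345-fold. LRRC37A13P had 35 to 204 (median 86.5), RPL21P84 45 to 96 (median 79), ENSG00000243802 101 to 171 (median 118.5) and MFSD14CP 6 to 36 (median 25.5), against 0 to 3 reads in all SMART-seq cells together. GEMIN8P3 had no read in SMART-seq lysate replicate 1 and no UMI in LAST-seq, but 619 and 292 UMIs per cell in CEL-seq2 replicates 1 and 2.

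The mitochondrial mRNAs did not move as one. They code for subunits of the respiratory chain and ATP synthase and are cut from shared precursors. All 13 were detected in every cell, 7 were past 4-fold higher in CEL-seq2 and 2 in SMART-seq, against 26.8% and 20.2% of all tested genes, with a median log2 ratio of 2.26. MT-ND3 had 917 to 2020 reads (median 1246.5) in CEL-seq2 and 14 to 74 (median 36) in SMART-seq, a log2 ratio of 5.10, and MT-ND6, the one mRNA of the light strand, 870 to 2874 (median 2059.5) and 96 to 154 (median 124), a log2 ratio of 3.99. MT-CO1 and MT-CO2 went the other way, with 383 to 701 (median 544.5) against 2502 to 3441 (median 3115) and 251 to 505 (median 295) against 1454 to 2160 (median 1785.5), log2 ratios of -2.50 and -2.46. In none of these 4 genes did the cells overlap. MT-ND4 had the most reads in CEL-seq2, with 6066 to 11566 reads (median 7915.5) against 885 to 1337 (median 1213), while MT-CO1 had the most in SMART-seq. The mitochondrial rRNA MT-RNR2 had 4852 to 17610 reads (median 9845.5) and 954 to 1725 (median 1277.5), and both rRNAs were higher in CEL-seq2.

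Of 79 cytosolic ribosomal protein genes, all were tested, 1 was higher in CEL-seq2 and 11 in SMART-seq, with a median log2 ratio of -0.40. Both shares were below the 26.8% and 20.2% of all tested genes. RPS24 was the one higher in CEL-seq2, with 728 to 1357 reads (median 1058.5) against 137 to 296 (median 226.5). RPS9 had 1 to 5 (median 2) against 50 to 93 (median 62), a log2 ratio of -4.67, and RPL29 11 to 47 (median 23) against 232 to 448 (median 280), -3.66. RPS6, the highest of the list in both assays, had 845 to 1730 (median 1465.5) against 830 to 1189 (median 958), and the cells overlapped. Against lysate replicate 1 the median of the list was -0.02.

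Long and short mRNAs fell on opposite sides. Of 45 long mRNAs listed (median 12677 nt), 40 were tested, 28 were higher in CEL-seq2 and none in SMART-seq, against 26.8% and 20.2% of all tested genes, with a median log2 ratio of 2.47. Beside NF1, the histone methyltransferase KMT2C had 16 to 100 reads (median 54.5) against 0 to 1, and AHNAK 6 to 41 (median 19) against 0 to 1. The kinetochore protein CENPF had 95 to 528 (median 307) against 15 to 206 (median 109), and the cells overlapped. Of 48 short mRNAs (median 1021 nt), 45 were tested, none was higher in CEL-seq2 and 17 in SMART-seq, against the same shares, with a median of -1.36. Thymosin beta 10 (TMSB10) had 17 to 64 reads (median 26) against 318 to 486 (median 433), a log2 ratio of -3.84. The dynein light chain DYNLL1 had the highest log2 ratio of the tested genes of this list, 0.80, with 152 to 632 reads (median 377) against 197 to 267 (median 220.5). The lists were made by length, so that these counts restate the dependence on length in named genes.

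Of 40 abundant housekeeping genes, 39 were tested, 1 was higher in CEL-seq2 and 15 in SMART-seq, against 26.8% and 20.2% of all tested genes, with a median log2 ratio of -1.40. The glycolytic enzyme GAPDH had 18 to 50 reads per CEL-seq2 cell (median 26) and 889 to 1654 per SMART-seq cell (median 938.5), a log2 ratio of -5.26. Actin ACTB, the highest of the list in SMART-seq, had 60 to 157 (median 107) against 1324 to 1897 (median 1731), a log2 ratio of -3.97. Beta-tubulin TUBB had none in CEL-seq2 and 27 to 59 (median 46.5) in SMART-seq, and the aldolase ALDOA 0 to 1 and 17 to 53 (median 37). The translation elongation factor EEF2 was the exception, with 371 to 789 (median 631) against 15 to 58 (median 25.5), a log2 ratio of 4.28.

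Replication-dependent histone mRNAs end in a stem-loop and mostly lack a poly-A tail. Of 58 listed, 26 had reads in CEL-seq2 and 21 in SMART-seq, and 4 were tested. Of these, 2 were past 4-fold higher in SMART-seq and none in CEL-seq2, against 20.2% and 26.8% of all tested genes. For 1 of the 4 the mean was higher in CEL-seq2. H4C3 had 6 to 1133 reads (median 75.5) in CEL-seq2 and 667 to 1092 (median 787) in SMART-seq, a log2 ratio of -2.05, and the ranges overlapped. H1-4 had 0 to 15 (median 1) and 8 to 64 (median 27), a log2 ratio of -2.63.

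Genes of the cell cycle were called in both directions, against 26.8% and 20.2% of all tested genes. Of 30 S phase genes, 28 were tested, 3 were higher in CEL-seq2 and 8 in SMART-seq, with a median log2 ratio of -0.86. The replication clamp PCNA had 25 to 116 reads (median 31.5) in CEL-seq2 and 252 to 480 (median 334) in SMART-seq, and the transcription factor E2F1 1 to 165 (median 29) and none, a log2 ratio of at least 6.38. Thymidylate synthase (TYMS) had 0 to 2 and 20 to 92 (median 46). The helicase subunit MCM7, the highest of the list in CEL-seq2, had 318 to 975 (median 608) and 76 to 314 (median 136.5), a log2 ratio of 1.90. Of 38 G2/M genes, all were tested, 6 were higher in CEL-seq2 and 9 in SMART-seq, with a median of -0.39. The ubiquitin-conjugating enzyme UBE2C had 0 to 11 (median 3.5) and 105 to 180 (median 136), a log2 ratio of -5.05, and the mitotic kinase PLK1 2 to 117 (median 34) and 0 to 6 (median 0), 5.58. In lysate replicate 1, PLK1 had a mean of 80.3 reads, above that of CEL-seq2.

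The spread between cells was measured as the coefficient of variation (CV, SD over mean) of the thinned reads. Over 3407 genes with a mean of at least 10 reads in both assays, the median CV was 0.480 in CEL-seq2 (interquartile range 0.371 to 0.622) and 0.739 in SMART-seq (0.426 to 1.16). The SMART-seq CV was the larger for 70.9% of the genes, and the median difference was -0.225. In the UMIs of the same CEL-seq2 cells the median CV was 0.410, and in 7 wells of SMART-seq lysate replicate 1 it was 0.390, which turned the median difference to 0.0538. If these wells came from 1 pool of cells, their CV would hold no differences between cells. It may thus be unlike the CV over single cells, and this turn does not compare the assays alone.

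The order depended on the level. For genes with 10 to 20 SMART-seq reads the median CV was 0.565 in CEL-seq2 and 1.33 in SMART-seq (926 genes), and for 20 to 50 reads 0.521 and 0.872 (1097). For 100 to 200 reads it was 0.402 and 0.386 (414), and for 200 or more 0.309 and 0.211 (280), where the SMART-seq CV was the larger for 23.9%. Classed by the CEL-seq2 reads, the SMART-seq CV was the larger for 74.2% of 1073 genes with 10 to 20 reads and for 43.3% of 164 with 200 or more. With each assay at its own level, the medians at 10 to 20 reads were 0.647 in CEL-seq2 and 1.24 in SMART-seq, where counting error alone would give 0.268 and 0.269, and at 200 or more 0.270 and 0.210, against 0.0540 and 0.0549.

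**Figure D5:**
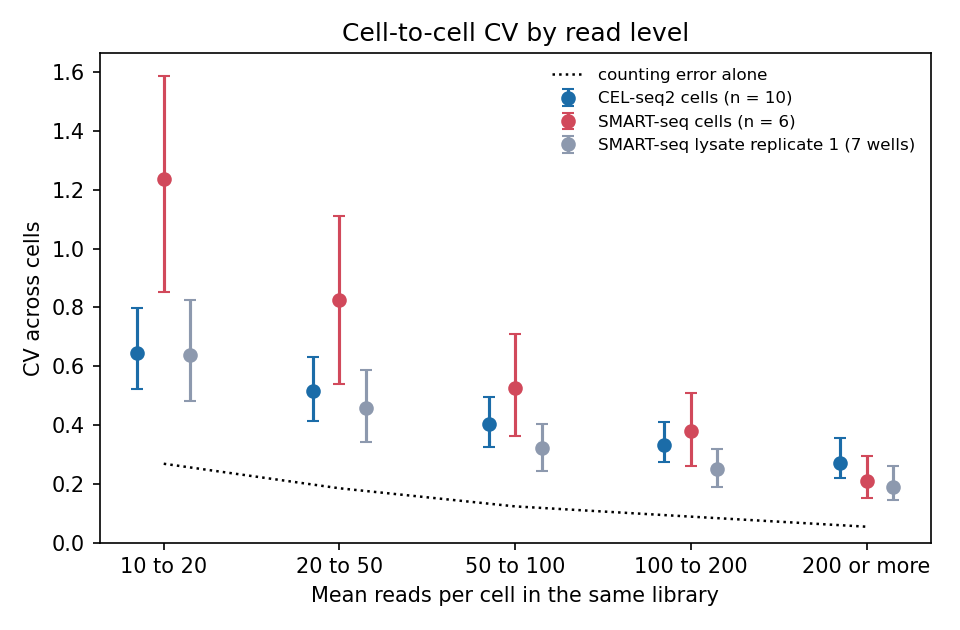
Cell-to-cell CV (y axis, median with the interquartile range over genes) by the mean reads per cell in the same library (x axis), for 10 CEL-seq2 cells (blue), 6 SMART-seq cells (red) and 7 wells of SMART-seq lysate replicate 1 (grey), with the CV of counting error alone as a dotted line. The SMART-seq median falls from 1.24 at 10 to 20 reads to 0.210 at 200 or more, and the CEL-seq2 median from 0.647 to 0.270.

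In the gene lists the CV followed the same division. Ribosomal protein genes had a median CV of 0.237 in CEL-seq2 and 0.186 in SMART-seq (77 genes), short mRNAs 0.351 and 0.221 (41) and housekeeping genes 0.311 and 0.192 (34). Long mRNAs had 0.482 and 1.24 (21), with the larger CV in SMART-seq for all 21. S phase genes had 0.523 and 0.711 (23 genes) and G2/M genes 0.669 and 0.739 (32), above the median of all 3407 genes in CEL-seq2 and close to it in SMART-seq. Their median SMART-seq levels, 69.8 and 64 reads, were above the 37.7 of all 3407 genes. Genes with 50 to 100 SMART-seq reads had a median CV of 0.457 in CEL-seq2 and 0.543 in SMART-seq, below both lists. In lysate replicate 1 the S phase and G2/M genes had 0.299 and 0.363.

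The genes with the highest CV were named among those with a mean of at least 50 reads. In CEL-seq2 they were the stress-induced transcription factor ATF3 (0 to 334 reads, median 28.5, CV 1.74), H4C3 (CV 1.68), ENSG00000261409 (15 to 1366, median 203.5, CV 1.23), which the annotation at hand did not hold, the replicative helicase subunit MCM6 (6 to 192, median 34.5, CV 1.04) and COCH (7 to 270, median 50.5, CV 1.03). In SMART-seq they were the mitotic kinesin KIF2C (0 to 218, median 9.5, CV 1.56), the checkpoint kinase CHEK1 (2 to 211, median 24.5, CV 1.54), the amino acid transporter SLC6A15 (0 to 200, median 16.5, CV 1.52), PRPF39 (0 to 184, median 9, CV 1.50) and the replicative helicase subunit MCM5 (0 to 253, median 43, CV 1.35). KIF2C had reads in 4 of 6 cells and PRPF39 in 3 of 6. No gene was in both groups of 5, which the filter fixed, since the 5 SMART-seq genes had means of 14 to 30.5 reads in CEL-seq2.

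Pairs of cells were compared across genes, which are not independent replicates. Pearson's r of log10(reads + 1) over the genes detected in either cell had a median of 0.700 over the 45 pairs within CEL-seq2 (0.612 to 0.749), 0.435 over the 15 pairs within SMART-seq (0.421 to 0.451) and 0.321 over the 60 pairs between assays (0.251 to 0.376). Of the union of the genes of 2 cells, both held 64.1% (median) within CEL-seq2, 51.4% within SMART-seq and 36.0% between assays.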

How the data were processed

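Single HEK293T cells were profiled by CEL-seq2 and SMART-seq V4. The authors deposited counts, whole numbers of reads or UMIs per gene and cell without normalization. They converted the data with bcl2fastq 2.20, trimmed reads with cutadapt, and used zUMIs to align to GRCh38 with the spike-in sequences, to subsample to an equal depth, to count reads in exons and to collapse UMIs by identity. Reads thus carry PCR copies, and SMART-seq has no UMIs.

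From these counts, spike-in rows were removed and each cell was thinned without replacement to 350000 reads, below the lowest total of 359989, which sets the precision of low genes. GENCODE release 44 (GRCh38) gave symbols, classes and lengths for 99.6% of the CEL-seq2 and 99.7% of the SMART-seq identifiers. The authors counted with release 33, so classes, lengths and 3′ overlaps given here may differ from those behind the counts. Cells were grouped by the labels. No test between assays was possible with 1 library each. Genes past 4-fold needed a mean of 10 reads in either assay, and a gene at 0 was set to 3 reads over that assay. Genes were named by the 10 largest ratios per direction without overlapping cells for protein-coding genes, 5 for lncRNAs and 5 for other classes, by the extremes and the highest level of each gene list, and by the 5 highest CVs per assay with a mean of at least 50 reads. The genes over the 3′ ends, such as EIF2AK1 and TCP1, and list members beyond the extremes and the highest level, such as GAPDH and PCNA, were named after their values were seen. The members and lists were chosen with earlier results of these data known. Alternatives changed the depth, detection limit, SMART-seq library, UMIs, length, filters and scaling (edgeR 4.0.16, DESeq2 1.42.0), or left out a cell. The calculations were tested on simulated data and used Python 3.11.15, numpy 2.4.6, pandas 2.3.3, scipy 1.17.1 and R 4.3.3. The CEL-seq2 lysate served only for the named genes and the search for near-identical wells.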

Additional observations from a re-analysis of the deposited data

Results flagged for a closer look

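Among 22 sets of per-cell values, 2 held a cell far from the others, where chance gives about 1 in 20. The CEL-seq2 cell with the barcode ACTCGA had the lowest share of pseudogenes among its detected genes, 9.04%, against 9.78% to 10.4% in the other 9 cells. It also had the fewest reads on genes as deposited, 359989, and the most genes at the common depth, 13702. The cell with the barcode TCACAG had the lowest share of reads on pseudogenes, 5.95%, against 7.03% to 8.21% in the others.

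Spike-in reads were present in every SMART-seq cell although the label names no mix. The SMART-seq method of the study adds spike-ins with the lysis buffer. The spike-in reads numbered 24108 to 30482 per cell over 28 to 36 species, or 2.87% to 3.61% of all reads. In SMART-seq lysate replicate 1, labelled with the A60 mix, the 7 distinct wells held 98 to 6168, and in the 10 unmatched wells of lysate replicate 2, labelled with the ERCC mix, 37877 to 49523.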

How the results depend on the processing

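The differences in genes detected, class shares, dropout and length slope kept their sign under the alternatives listed below. The CV and the order of the counts of genes past 4-fold did not. At 10000 reads, a depth outside that list, lysate replicate 1 held more genes per well (3954) than CEL-seq2 per cell (3818). The median over genes of the difference in CV was -0.225 (CEL-seq2 minus SMART-seq). It turned to 0.0282 at 50000 reads, to 0.00781 over genes with a mean of at least 50 reads, to 0.0538 against the distinct wells of SMART-seq lysate replicate 1 and to 0.0920 against the 10 unmatched wells of lysate replicate 2. It was -0.280 with the UMIs of CEL-seq2 replicate 1 and -0.193 with those of replicate 2. CVs over lysate wells may lack differences between cells. The cause of these changes was not tested. The comparisons with the unmatched wells and, beyond the CV, with the 7 distinct wells, the GC classes within lengths and the step without overlapped 3′ ends were chosen after seeing the data.

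Other differences changed in size. At 200000, 100000 and 50000 reads the difference in genes per cell was 4717, 3741 and 2694, in genes over 6 cells 5599, 4594 and 3549, and in the pseudogene share -16.4, -14.9 and -12.9 points. At 100000 and 50000 reads it was 3.76 and 2.92 points for lncRNAs and -34.9 and -27.6 points for dropout, and at 50000 reads 9.42 points for protein-coding genes and 0.63 for the length slope. Without thinning it was 5807 genes over 6 cells, 13 points for protein-coding genes and -19.4 for pseudogenes. With at least 2 and at least 5 reads for detection it was 4209 and 2606 genes per cell, 4386 and 2293 genes over 6 cells, 3.72 and 1.66 points for lncRNAs, -16.1 and -12.9 for pseudogenes and -39.2 and -30.3 for dropout.

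Against all 10 wells of lysate replicate 1, its 7 distinct wells and the unmatched wells of replicate 2 it was 1414, 1320 and 1251 genes per cell, 3055, 2666 and 2558 genes over 6 cells, 3.86, 3.78 and 3.65 points for protein-coding genes, 4.54, 4.50 and 4.49 for lncRNAs, -9.48, -9.36 and -9.21 for pseudogenes and -10.7, -10.2 and -9.69 for dropout. The genes past 4-fold were then 1191, 1158 and 1096 higher in CEL-seq2 and 1332, 1320 and 1272 higher in SMART-seq, which turned the order of 2007 over 1511. The length slope was 0.73 against the 7 distinct and 0.72 against the unmatched wells. With UMIs of CEL-seq2 replicate 2 the values were 9.18, 4.46 and -14.5 points for the 3 classes and 0.67 for the slope. Dropout at a level set by lysate replicate 1 differed by -38.1 points. The slope was 0.66 with the union of exons, 0.56 with a mean of at least 10 reads in both assays and 0.61 over all gene types. With a mean of at least 1 read, 4660 and 2963 genes were past 4-fold, and with no filter 4709 and 3051, since more genes were compared.

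Leaving out each cell in turn gave 5311 to 5519 genes per cell, 6303 to 6652 genes over cells, 10.3 to 10.7 points for protein-coding genes, 5.36 to 5.69 for lncRNAs, -17.3 to -17.0 for pseudogenes, -42.2 to -41.4 for dropout, a slope of 0.81 to 0.85, 1986 to 2085 and 1493 to 1548 genes past 4-fold and a CV difference of -0.247 to -0.205. The 6 near-identical pairs remained 6 with a summed count of at least 100 per gene. No paired analysis was possible because each assay had 1 library and its cells carry no shared replicate number. Depth limits the lowest genes, and with 1 library per assay the assay cannot be told apart from the library.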
